A study of Homo sapiens with 8 samples.

Results

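The 10 genes described here encode secreted growth factors and cytokines (GDF15, INHBA, TGFB1, TGFB2, HBEGF, PDGFA, FGF2, VEGFC and EDN1) and 1 receptor (EGFR), taken by name from the 13036 genes of the deposited RNA-seq table, and all 10 were in it. The cells were LN229-TAZ(4SA), a glioblastoma line of human origin that carries TAZ(4SA), a form of the Hippo pathway co-activator TAZ known to be constitutively active. Cells were grown in regular culture for 1 h or 7 h, or without glucose and with 1 µM AF for the same times, with 2 libraries in each of the 4 groups. All 4 groups are the same line and carry the transgene, so none of the comparisons bears on TAZ(4SA) itself. AF is not spelled out in the labels. The title of the series names the inhibition of thioredoxin reductase 1, the product of TXNRD1. Treatment always combined AF with glucose loss, so the effects of the drug and of starvation cannot be told apart. "Treated" below means both. Separate cultures are not stated for the libraries of a group. The p-values therefore reflect the spread between libraries, in large part shared over all genes, and this spread may be technical.

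These genes act outside the cell. GDF15, the inhibins and activins and the TGF-betas belong to the TGF-beta superfamily: they are made as precursors, cut by proprotein convertases and, for the TGF-betas, stored in a latent complex until they are released to paired serine/threonine kinase receptors. HBEGF is made as a membrane protein, is shed by metalloproteases such as ADAM17 and activates EGFR, a receptor tyrosine kinase that is often amplified in glioblastoma. PDGFA, FGF2 and VEGFC each bind receptor tyrosine kinases of their own families, and EDN1 encodes the precursor of endothelin 1, a vasoconstrictor peptide that signals through G protein-coupled receptors. Several of them are also known as targets of serum, of TAZ or its paralogue YAP, or of cell stress.

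Each library held 27731776 to 45811965 reads in the listed genes. Levels are given in CPM, reads scaled to a common library size as the authors deposited them, and 3 reads (the upper limit behind a count of 0) equalled 0.0626 to 0.129 CPM. In bulk libraries a CPM is a share of the RNA, so it shows neither the number of cells nor the amount of RNA per cell. At 7 h TXNRD1 stood at 351 ± 4.90 CPM (SD, n = 2) in regular and 2473 ± 21.1 in treated cells. WWTR1, which encodes TAZ, was at 248 to 405 CPM in every group, and reads of the transgene and of the endogenous gene were not separated. The table held 9 of 11 genes listed as markers of a glioblastoma line (SOX9 and CHI3L1 were not in it). Among the 9, VIM was at 2731 to 3732 CPM, OLIG2 at 6.60 to 16.8 CPM and GFAP at 0.438 to 1.34 CPM. It also held 1 of 5 immune markers, 1 of 4 endothelial markers and none of the 3 epithelial and 2 erythroid markers. The 3 neuronal markers summed to 127 to 132 CPM in treated cells at 7 h and to 43.4 to 56.2 CPM in the other groups. They did not vary alike: over all libraries RBFOX3 ranged from 0.420 to 28.7 CPM, SYT1 from 31.0 to 86.9 and SNAP25 from 11.9 to 16.8. The immune marker CD68 was at 21.1 to 22.1 CPM in treated cells at 7 h and at 11.2 to 14.3 CPM elsewhere. The part of these markers in the results below was not tested.

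The 10 genes were compared between treated and regular cells at each time, and between the times within each condition. None of the 4 groups was sampled before treatment, so changes from the start were not measured. A fall or rise at a single time below means lower or higher than regular culture at that time. At 1 h, 7 of the 10 were lower in treated than in regular cells (EDN1, HBEGF, PDGFA, TGFB2, TGFB1, FGF2 and INHBA). 1 was higher (GDF15), and VEGFC and EGFR did not pass the test, an adjusted p under 0.05 over all genes in limma. Over all 13028 genes tested, 38.4% passed, 20.7% lower and 17.7% higher. 4 of the 10 differed at least 2-fold (EDN1, HBEGF, PDGFA and GDF15), against 3.13% of all genes. At 7 h, 5 were higher (GDF15, INHBA, HBEGF, FGF2 and TGFB1) and 3 lower (PDGFA, TGFB2 and EGFR), against 40.5% and 41.1% of all genes (81.6% in either direction). The 4 that passed at least 2-fold at 7 h (GDF15, INHBA, HBEGF and PDGFA) compare with 22.1% of all genes. When libraries were instead scaled to their summed reads over the listed genes, called total-count scaling below, 6 of the 10 were lower and 1 higher at 1 h, against 14.0% and 30.2% of all genes. At 7 h 5 were then lower and 4 higher, against 58.2% and 24.1%. The median log2 difference of the 10 on the deposited scale was -0.29 at 1 h and 0.09 at 7 h, and that of all genes was 0.01 and -0.01.

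**Figure D1:**
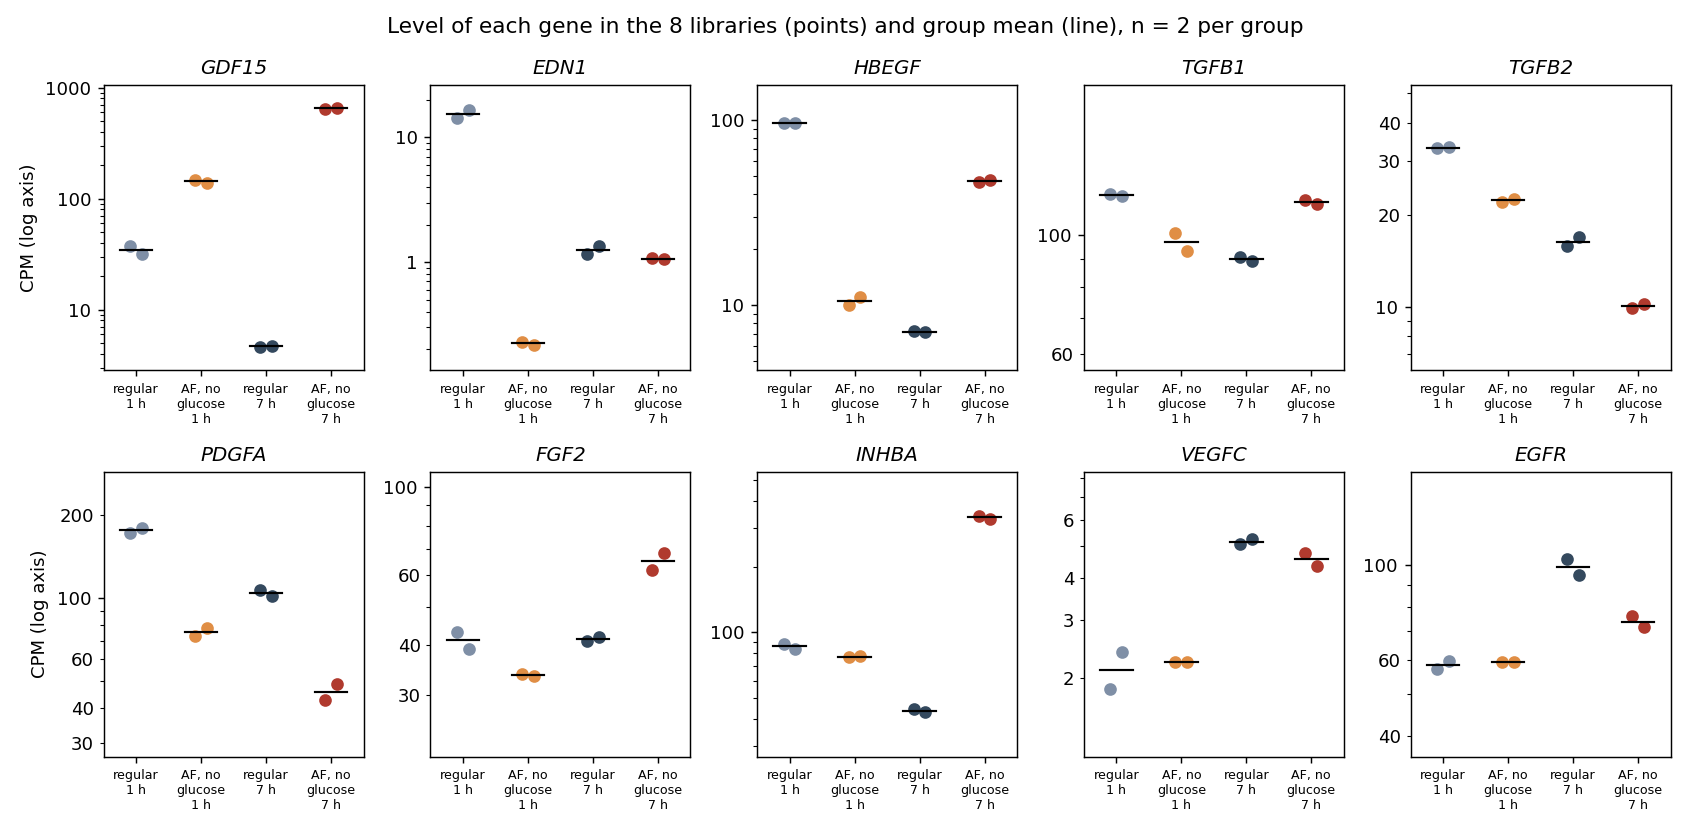
Level of each gene in CPM (log axis, its range differs between panels) in regular culture and in treated cells (AF, no glucose) at 1 h and 7 h. Points are libraries and lines are group means (n = 2); GDF15 reaches 646 and 662 CPM in treated cells at 7 h, while EDN1 and HBEGF are highest in regular culture at 1 h.

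4 genes were lower in treated cells at 1 h and higher at 7 h (HBEGF, INHBA, TGFB1 and FGF2), a pattern held by 922 genes, 7.08% of those tested. Under total-count scaling HBEGF and FGF2 alone kept it among the 10, with 432 genes (3.32%). GDF15 was higher at both times (8.90% of genes). PDGFA and TGFB2 were lower at both (11.2%). EDN1 was lower at 1 h and not called at 7 h (2.41%). EGFR was called at 7 h alone, as lower (23.6%), and VEGFC was called at neither time (13.5%). The change of the treatment effect from 1 h to 7 h was tested directly. It was positive for 6 genes (GDF15, EDN1, HBEGF, INHBA, FGF2 and TGFB1) and negative for EGFR, against 36.7% and 37.0% of all genes (73.7% in either direction). It was at least 2-fold for 4 of them (HBEGF, EDN1, GDF15 and INHBA), against 22.7% of all genes. Under total-count scaling TGFB2 (-0.50), PDGFA (-0.36) and VEGFC (-0.64) were called negative as well, giving 6 and 4 of the 10 against 19.3% and 58.2% of all genes.

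**Figure D2:**
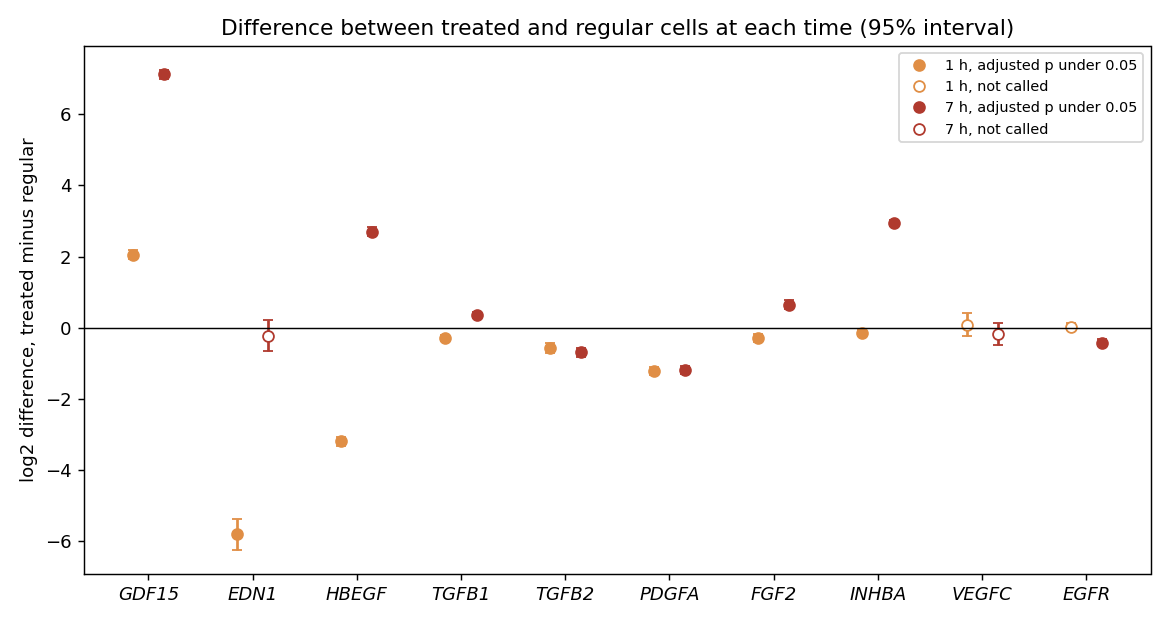
log2 difference between treated and regular cells for each gene at 1 h and 7 h, with the 95% interval from limma; filled points have an adjusted p under 0.05. The 1 h values run from -5.80 (EDN1) to 2.06 (GDF15) and the 7 h values from -1.19 (PDGFA) to 7.12 (GDF15).

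GDF15 (Entrez 9518, chr19:18374731-18389176 on the plus strand of GRCh38) encodes a distant member of the TGF-beta superfamily that circulates during cell stress and acts on the receptor GFRAL in the hindbrain. It is a classical target of ATF4, CHOP and p53. Before its RefSeq start site the letters hold, beside GC boxes, a match to the motif of TEAD (the DNA-binding partner of TAZ) and a TATA box, shown here because this gene had the largest difference of the 10 at 7 h. Capitals mark the motif, and since most of this window lies in an untranslated region annotated for another transcript, only the sites are printed.
GDF15 TEAD match, chr19:18385916-18385945: gactcccaggctGGAATGgtgtcctcatat
GDF15 TATA box, chr19:18386117-18386146: aagtccggggacTATAAAggccggtccggc

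At 1 h the regular libraries held GDF15 at 37.6 and 31.5 CPM and the treated at 148 and 139 CPM. At 7 h the regular libraries were at 4.57 and 4.74 CPM and the treated at 646 and 662 CPM. No 2 groups overlapped, and the order of the groups was treated 7 h, treated 1 h, regular 1 h, regular 7 h. The treatment effect was 2.06 on the log2 scale at 1 h (SE 0.0598, adjusted p = 5.41e-16), a 4.16-fold difference that ranked 37 from the top of 13028 genes. At 7 h it was 7.12 (SE 0.0598, adjusted p = 3.66e-25), a 139-fold difference and the 5th highest of all genes. Between 1 h and 7 h regular culture fell 7.32-fold (-2.87) and treated cells rose 4.56-fold (2.19, adjusted p = 4.51e-17). Per kb of annotated exon, GDF15 was the most abundant of the 10 genes in treated cells at 7 h (314 ± 5.43 CPM per kb) and ranked 8 of 10 in regular culture at the same time (2.23 ± 0.0585).

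INHBA (Entrez 3624, chr7:41667168-41705834, minus strand) encodes the beta A subunit of activin A and inhibin A. Libraries of regular culture at 1 h were at 88.0 and 84.0 CPM and those of treated cells at 76.6 and 77.7 CPM. At 7 h the regular libraries were at 44.3 and 43.0 CPM and the treated at 340.2 and 332 CPM. The groups did not overlap at either time, and only treated cells at 7 h stood above regular culture at 1 h. The 1 h difference was small (-0.16, SE 0.0379, adjusted p = 0.00293) and lost its call under total-count scaling (-0.09, adjusted p = 0.0657). At 7 h INHBA was 7.69-fold higher (2.94, SE 0.0379, adjusted p = 2.26e-22). The antisense gene INHBA-AS1, which shares 0 exon bases with INHBA in GENCODE 29, was at 0.473 CPM in regular and 2.65 CPM in treated cells at 7 h, and its part in the INHBA level was not tested.

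TGFB1 (Entrez 7040, chr19:41301587-41353911, minus strand) and TGFB2 (Entrez 7042, chr1:218346235-218444619, plus strand) encode TGF-beta isoforms, with broad roles in matrix production and in immune suppression in glioma. TGFB1 stood at 119 and 118 CPM in the regular and 101 and 93.0 CPM in the treated libraries at 1 h. By 7 h these were 90.7 and 89.5 CPM for regular and 116 and 114 CPM for treated libraries. All 4 groups lay within 89.5 to 119 CPM and none overlapped. The effect turned from -0.29 at 1 h (SE 0.0396, adjusted p = 7.12e-06) to 0.35 at 7 h (SE 0.0396, adjusted p = 1.09e-07), and the turn itself was 0.64 (SE 0.0560, adjusted p = 3.78e-09). Under total-count scaling the 7 h effect was 0.03 and no longer called (adjusted p = 0.431), and the turn was 0.26 (adjusted p = 0.000395). TGFB1 shares 215 exon bases with HNRNPUL1 on the opposite strand, a gene at 412 to 484 CPM. The libraries do not mark strand, so reads in that stretch cannot be assigned.

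TGFB2 moved one way only. At 1 h the regular libraries were at 33.2 and 33.3 CPM and the treated at 22.05 and 22.6. At 7 h they were at 15.8 and 16.9 CPM (regular) and 9.94 and 10.2 CPM (treated). The 4 groups did not overlap, and treated cells were below regular cells at both times. The effect was -0.57 at 1 h (SE 0.0642, adjusted p = 5.68e-07) and -0.69 at 7 h (SE 0.0642, adjusted p = 5.87e-09). The difference between these effects was -0.12 (95% interval -0.31 to 0.07, adjusted p = 0.242). It was -0.50 and called under total-count scaling (adjusted p = 6.66e-05). TGFB2 shares 1371 exon bases with TGFB2-OT1 on the same strand, which is not among the listed genes. The part of that transcript in the TGFB2 level was not tested.

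HBEGF (Entrez 1839, chr5:140332843-140346631, minus strand) encodes heparin-binding EGF-like growth factor, an EGFR ligand and an immediate early target of serum and RAS-ERK signalling. Its regular libraries went from 96.9 and 95.9 CPM at 1 h to 7.22 and 7.15 CPM at 7 h. Its treated libraries went from 10.0 and 11.03 CPM to 46.4 and 47.5 CPM. The order at 1 h was thus the reverse of that at 7 h, with no overlap between any groups. HBEGF was 9.14-fold lower in treated cells at 1 h (-3.19, SE 0.0603, adjusted p = 7.34e-19), the 11th lowest of 13028 genes. At 7 h it was 6.49-fold higher (2.70, SE 0.0603, adjusted p = 1.19e-18). The difference between the effects was 5.89 (SE 0.0852, adjusted p = 7.91e-21). Treated cells at 7 h stayed below regular cells at 1 h, at 46.9 ± 0.779 against 96.4 ± 0.656 CPM (SD, n = 2).

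EGFR (Entrez 1956, chr7:55019021-55211628, plus strand) encodes the receptor of HBEGF. At 1 h it was at 57.2 and 59.8 CPM in the regular libraries and at 59.4 CPM in both treated ones. At 7 h the regular libraries were at 103 and 94.8 CPM and the treated at 75.9 and 71.7 CPM. The 1 h groups overlapped and the 7 h groups did not. No difference was detected at 1 h (0.02, 95% interval -0.07 to 0.12, adjusted p = 0.728). EGFR was 1.34-fold lower in treated cells at 7 h (-0.42, SE 0.0463, adjusted p = 7.02e-08; -0.74 under total-count scaling). In regular culture it rose 1.69-fold between the times (0.76, SE 0.0463, adjusted p = 4.05e-11). In treated cells it rose by 0.31 (adjusted p = 4.94e-06), which turned to -0.06 under total-count scaling. So while the ligand gene HBEGF was higher in treated cells at 7 h, the receptor gene was lower. EGFR shares 186 exon bases with EGFR-AS1 on the opposite strand, which is not among the listed genes.

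PDGFA (Entrez 5154, chr7:497258-520296, minus strand) encodes the A chain of platelet-derived growth factor, a glial mitogen. Regular libraries were at 172 and 179 CPM and treated libraries at 72.9 and 77.6 CPM at 1 h. The 7 h values were 107 and 102 CPM (regular) and 42.7 and 48.8 CPM (treated). Both treated groups were below both regular groups, and no groups overlapped. PDGFA was 2.33-fold lower in treated cells at 1 h (-1.22, SE 0.0522, adjusted p = 2.58e-13) and 2.28-fold lower at 7 h (-1.19, SE 0.0522, adjusted p = 4.82e-14). The difference between these effects was 0.03 (95% interval -0.13 to 0.18, adjusted p = 0.749), but it became -0.36 with a call under total-count scaling (adjusted p = 0.000313). Per kb of exon PDGFA was the most abundant of the 10 genes in regular culture at 1 h (42.2 ± 1.12 CPM per kb) and ranked 5 of 10 in treated cells at 7 h (11.02 ± 1.03).

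FGF2 (Entrez 2247, chr4:122826708-122898236, plus strand) encodes basic fibroblast growth factor, which leaves the cell without a signal peptide and binds heparan sulphate and the FGF receptors. Regular libraries held it at 43.2 and 39.0 CPM at 1 h and at 40.95 and 41.9 CPM at 7 h. Treated libraries were at 33.9 and 33.6 CPM and then at 62.0 and 68.3 CPM. Regular culture at 1 h and at 7 h overlapped, and the treated groups lay below and above it. The effect was -0.28 at 1 h (SE 0.0555, adjusted p = 0.000415) and 0.65 at 7 h (SE 0.0555, adjusted p = 1.70e-09). Total-count scaling lowered the 7 h effect to 0.33, which was still called. FGF2 shares 804 exon bases with NUDT6 on the opposite strand, a gene at 1.24 to 3.24 CPM.

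VEGFC (Entrez 7424, chr4:176683538-176792727, minus strand) encodes a ligand of VEGFR3 that drives the growth of lymphatic vessels. At 1 h the regular libraries were at 1.85 and 2.39 CPM and the treated at 2.24 and 2.23 CPM, from 61 to 108 reads per library. The 7 h values were 5.07 and 5.23 CPM (regular) and 4.78 and 4.34 CPM (treated). The 1 h groups overlapped, and both 7 h groups lay above both 1 h groups. No treatment effect was detected at 1 h (0.08, 95% interval -0.24 to 0.40, adjusted p = 0.706) or at 7 h (-0.18, 95% interval -0.50 to 0.14, adjusted p = 0.291), although the latter was -0.49 and called under total-count scaling (adjusted p = 0.00651). VEGFC rose with time in regular culture (1.27, SE 0.152, adjusted p = 7.16e-07) and in treated cells (1.01, SE 0.152, adjusted p = 6.23e-06; 0.64 under total-count scaling).

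EDN1 (Entrez 1906, chr6:12290363-12297194, plus strand) encodes preproendothelin 1. Of the 10 it was the furthest below regular culture in treated cells at 1 h. Its regular libraries held 468 and 745 reads at 1 h (14.2 and 16.5 CPM), and the treated libraries held 10 and 8 reads (0.228 and 0.218 CPM). At 7 h the regular libraries held 56 and 61 reads (1.17 and 1.35 CPM) and the treated libraries 25 and 33 (1.08 and 1.05 CPM). Treated cells at 1 h were lowest, and the 7 h groups were close to each other without overlap. The fitted effect at 1 h was -5.80 (SE 0.207, adjusted p = 1.37e-14), the 2nd lowest of 13028 genes on the deposited scale. With a pseudocount of 0.5 CPM it was -4.45, and the change of effect between the times was 4.28 instead of 5.58. From the reads the level was 69.5-fold lower, with a 95% interval of 43.8 to 118 that covers counting error only. No difference was detected at 7 h (-0.23, 95% interval -0.66 to 0.21, adjusted p = 0.315), where total-count scaling gave -0.53 with a call (adjusted p = 0.0245). In treated cells EDN1 rose by 2.02 from 1 h to 7 h (adjusted p = 3.12e-08). With the same pseudocount this was 1.11.

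The levels in regular culture were not constant between the times. From 1 h to 7 h, 7 of the 10 fell (HBEGF, EDN1, GDF15, TGFB2, INHBA, PDGFA and TGFB1), 2 rose (VEGFC and EGFR) and FGF2 was not called (0.01, 95% interval -0.10 to 0.13, adjusted p = 0.861). Over all genes 30.8% fell and 30.7% rose, 61.5% in all. 5 of the 10 changed at least 2-fold (HBEGF, EDN1, GDF15, VEGFC and TGFB2), against 6.25% of all genes. The falls were 13.3-fold for HBEGF (-3.74, SE 0.0603), 11.8-fold for EDN1 (-3.56, SE 0.207) and 7.32-fold for GDF15 (-2.87, SE 0.0598), which ranked 20, 24 and 39 from the lowest of 13028 genes. TGFB2 fell 2.03-fold, INHBA 1.97-fold, PDGFA 1.68-fold and TGFB1 1.32-fold. In treated cells 8 rose and 2 fell (TGFB2 and PDGFA) from 1 h to 7 h, against 36.9% and 40.7% of all genes (77.6% in either direction). 6 of them changed at least 2-fold (GDF15, HBEGF, INHBA, EDN1, TGFB2 and VEGFC), against 15.9% of all genes. Under total-count scaling 6 rose and 3 fell, against 17.3% and 65.7%, with TGFB1 then lower (-0.12) and EGFR not called (-0.06). The regular libraries of 1 h and 7 h also enter the treatment effects, so a change of regular culture and a change of the treatment effect share libraries. Treated cells at 1 h stood at 10.5 ± 0.731 CPM (SD, n = 2) for HBEGF, against 7.19 ± 0.0517 in regular culture at 7 h. For EDN1 these levels were 0.223 ± 0.00732 and 1.26 ± 0.125 CPM.

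The letters upstream of EDN1, HBEGF, PDGFA and TGFB2 are shown by the size of their difference at 1 h. These 4 genes were lower in treated than in regular cells by more than 0.5 on the log2 scale. INHBA, TGFB1 and FGF2 were lower by less and are left out. The 4 did not move together at 7 h, where the effect was 2.70 for HBEGF, -1.19 for PDGFA, -0.69 for TGFB2 and -0.23 (not called) for EDN1. Each run ends at or before the RefSeq start site, stops short of annotated untranslated and coding bases, and reads 5′ to 3′ on the strand of the gene. EDN1 and PDGFA have several RefSeq start sites, and the one nearest to the GENCODE gene start is used. Capitals mark matches to the motifs searched.
EDN1, chr6:12290111-12290360: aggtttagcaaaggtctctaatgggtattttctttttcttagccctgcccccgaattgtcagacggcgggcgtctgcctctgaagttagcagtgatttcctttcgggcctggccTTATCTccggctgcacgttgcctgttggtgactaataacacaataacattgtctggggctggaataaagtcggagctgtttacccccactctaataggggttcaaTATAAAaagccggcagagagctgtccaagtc
HBEGF, chr5:140346632-140346853: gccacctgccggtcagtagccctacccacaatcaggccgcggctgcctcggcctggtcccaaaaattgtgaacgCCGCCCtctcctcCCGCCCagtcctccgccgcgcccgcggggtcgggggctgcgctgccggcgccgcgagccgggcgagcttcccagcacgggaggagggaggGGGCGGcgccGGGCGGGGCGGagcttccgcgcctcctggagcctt
PDGFA, chr7:520297-520476: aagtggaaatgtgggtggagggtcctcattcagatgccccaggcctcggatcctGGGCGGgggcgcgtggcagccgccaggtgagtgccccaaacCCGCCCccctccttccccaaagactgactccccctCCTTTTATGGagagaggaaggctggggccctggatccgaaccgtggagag
TGFB2, chr1:218345086-218345335: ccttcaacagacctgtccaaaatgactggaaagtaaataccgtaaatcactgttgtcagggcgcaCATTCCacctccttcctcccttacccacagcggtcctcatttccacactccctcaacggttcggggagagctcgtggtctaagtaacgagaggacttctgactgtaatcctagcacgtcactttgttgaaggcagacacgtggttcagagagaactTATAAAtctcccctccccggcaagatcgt

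In these runs EDN1 holds a TATA box (TATAAA) and a GATA match (TTATCT, the reverse complement of AGATAA), and HBEGF holds 5 GC boxes (GGGCGG or CCGCCC). PDGFA holds a CArG box, the site of serum response factor, with 2 GC boxes. TGFB2 holds a TEAD match (CATTCC, the reverse complement of GGAATG) and a TATA box. No motif was found in all 4. All 10 genes had windows in the RefSeq table (16 windows, build GRCh38.p14), and 11 motifs were searched on both strands in the 250 bases before each start site. TATAAA lay in 5 of the 16 windows, against 10.7% of all 35093 windows, and GGAATG in 4 of 16, against 11.9%. The GC box GGGCGG lay in 11 of 16, from 8 of the 10 genes, against 42.6%. Genes with several start sites enter these counts more than once, PDGFA among them. The PDGFA windows were 68.8% to 81.6% G and C, against a median of 58.0% over all windows. The 16 windows together ran from 38.8% to 81.6%. The part of base composition and of repeated windows in these shares was not tested. AGATAA lay in 2 windows (9.17% of all), the AP-1 motif TGANTCA in 1 (6.57%), the antioxidant response element TGACNNNGC in 1 (10.9%) and the CArG box in 1 (1.16%). The letters TGACGTCA (ATF/CRE), TGATGNAA (C/EBP-ATF), the heat shock element and the NF-kB motif were in none of the 16, against 1.65%, 3.15%, 0.442% and 5.20% of all windows. TGANTCA and TGACNNNGC can overlap in 1 stretch of letters. A match is a description of letters and not evidence of binding.

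Genes whose 8 values ran closest to each member were found by the Euclidean distance between centred log2 values over the 8 libraries, among 10833 genes. GDF15 was closest to DUSP2, a dual-specificity phosphatase of the MAP kinases, at a distance of 0.68. DUSP2 was at 3.31 CPM in regular and 15.4 CPM in treated cells at 1 h, and at 0.568 and 62.7 CPM at 7 h. IER5 and MXD1 followed at 2.03 and 2.23. Among the nearest genes of INHBA were WHRN (0.31) and FBXL14 (0.42). WHRN was at 16.1 CPM in regular and 14.5 CPM in treated cells at 1 h, and at 8.29 and 53.5 CPM at 7 h.

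HBEGF was closest to MMP25 (1.35), ZC3H12A (1.39) and F3, the gene of tissue factor (1.39). EDN1 was closest to the chemokine gene CXCL1 (2.22), DEPP1 (2.26) and the chemokine gene CXCL8 (2.37). TGFB1 lay 0.09 from SF1, a splicing factor, then CCDC50 and GPATCH2L. FGF2 lay 0.17 from POMP, a proteasome assembly chaperone, then UBL3 and RNF11. The nearest genes of TGFB2 were MEF2C, IBA57 and KBTBD2, those of PDGFA were TIFA, CBX8 and SLFN12, those of VEGFC were MIR31HG, IGSF9B and AK5, and those of EGFR were COL22A1, STEAP3 and NTN1. Distances grow with the size of the changes, so they rank genes for 1 member and not between members.

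Other genes of these pathways were taken from 4 lists by role, 162 genes of which 115 were tested. At 1 h, 49 of the 115 fell and 11 rose, against 20.7% and 17.7% of all genes. At 7 h 53 fell and 51 rose, against 41.1% and 40.5% of all genes. The 11 rises became 17 under quantile normalization and 18 under total-count scaling. Under total-count scaling each of the 4 lists had fewer falls at 1 h than on the deposited scale. At 7 h each of the 4 then had more falls than rises, where 58.2% of all genes fell and 24.1% rose. Of 32 inhibitors and feedback regulators tested, 23 fell and 6 rose at 1 h, with a median of -0.33 against 0.01 for all genes. The falls numbered 20 and 19 under the other scalings. ERRFI1, an inhibitor of EGFR, was at 378 CPM in regular and 112 CPM in treated cells at 1 h (-1.75). DUSP5 and DUSP6, phosphatases of ERK, fell by 1.41 and 1.36 on the log2 scale. At 7 h, 14 of the 32 rose and 14 fell (13 and 19 under total-count scaling). DUSP5 was then higher by 2.29 (17.3 to 84.6 CPM), SPRY4, an inhibitor of RAS-ERK signalling, by 2.00 (67.4 to 270.3 CPM), and SKIL, a repressor of SMAD transcription factors, by 1.99 (40.5 to 161 CPM). For DUSP5, ERRFI1 and SKIL the change of effect between the times was 3.70, 3.21 and 3.32. Like HBEGF, ERRFI1, SPRY4 and DUSP5 were highest in regular culture at 1 h and fell there by 2.94, 2.51 and 2.68 on the log2 scale to 7 h.

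**Figure D3:**
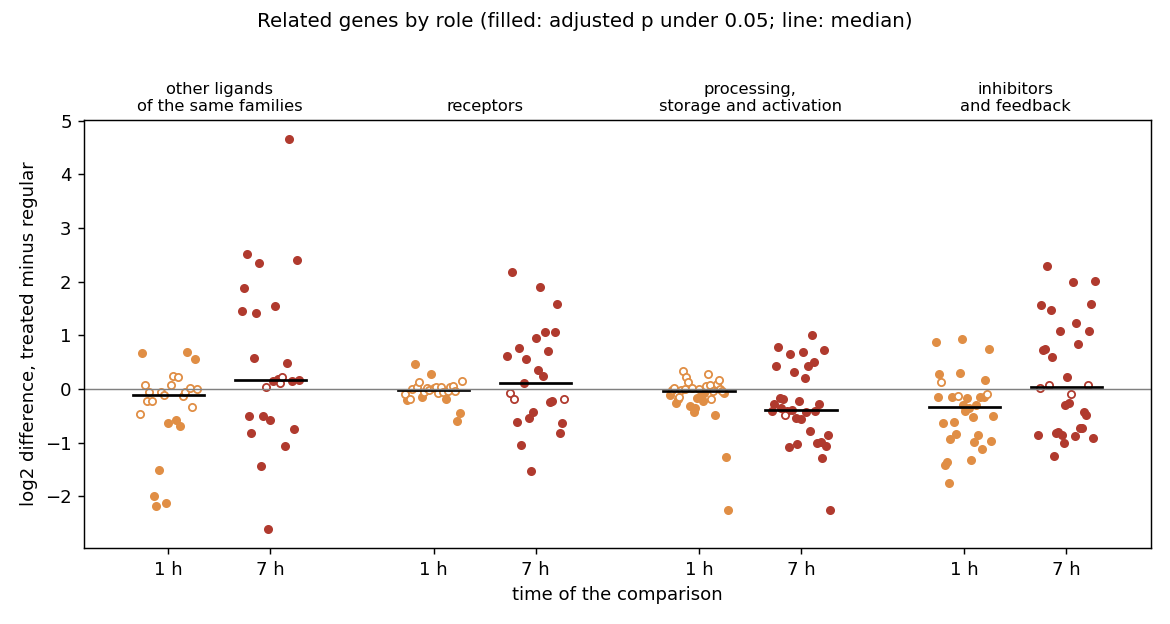
log2 difference between treated and regular cells at 1 h and 7 h for related genes in 4 lists by role; each point is 1 gene, filled where the adjusted p was under 0.05, and the line is the median of the list. Inhibitors and feedback regulators have a median of -0.33 at 1 h and 0.04 at 7 h.

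Of 25 other ligands of the same families that were tested, 7 fell and 3 rose at 1 h. At 7 h 14 rose and 8 fell, which became 8 and 13 under total-count scaling. PGF, placental growth factor of the VEGF family, was higher at both times (0.69 and 4.65) and reached 51.2 CPM in treated cells at 7 h against 1.98 in regular culture. FGF5 was lower at both (-2.12 and -2.61), and EGF fell by 1.99 on the log2 scale at 1 h. BMP6 rose by 2.51 at 7 h. TGFA, another EGFR ligand, fell in regular culture from 326 to 105 CPM between 1 h and 7 h (-1.64).

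Of 25 receptors tested, 2 rose and 5 fell at 1 h. These counts became 4 and 4 under quantile normalization and 5 and 3 under total-count scaling, so their balance rested on the scaling. At 7 h 13 rose and 9 fell (10 and 13 under total-count scaling). TGFBR1 and TGFBR2, the receptors of the TGF-betas, fell by 0.60 and 0.45 on the log2 scale at 1 h. ACVR2B, a type II activin receptor, rose by 0.46 at 1 h. FGFR3 was higher at 7 h (1.90, 4.25 to 16.0 CPM), as was PDGFRB, a receptor of the platelet-derived growth factors (1.58, 6.94 to 20.9 CPM). ERBB2, a partner of EGFR, was lower at 7 h (-1.52, 194 to 67.4 CPM).

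Of 33 genes of processing, storage and activation, 14 fell at 1 h and 0 rose in limma. The rises were also 0 at an unadjusted p under 0.05 and 0 with voom weights. Each of the other scalings gave 3 rises, and the falls were 11 under quantile normalization and 8 under total-count scaling. At 7 h 22 fell and 10 rose (23 and 6 under total-count scaling). THBS1, a matrix glycoprotein that can activate latent TGF-beta, was lower at both times (-2.26 and -2.25). SDC4, a heparan sulphate proteoglycan, fell by 1.27 on the log2 scale at 1 h, and its relatives SDC1 and SDC3 fell by 1.30 and 1.06 at 7 h. The effect on ADAM17, the sheddase of HBEGF, rose by 1.03 between the times, and its level in treated cells at 7 h was 84.2 CPM against 49.3 in regular culture. These lists share the libraries of the 10 genes, and their counts on the deposited scale are read against 20.7% lower and 17.7% higher of all genes at 1 h and 41.1% and 40.5% at 7 h. The shares of all genes under total-count scaling were 14.0% and 30.2% at 1 h and 58.2% and 24.1% at 7 h, and under quantile normalization 17.3% and 23.7% at 1 h.

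The deposited scale had already raised the treated 7 h libraries relative to their read totals: the library sizes behind the CPM were 0.838 and 0.846 times the reads there and 1.04 to 1.09 times elsewhere. Total-count scaling moved the median of all genes by -0.31 at 7 h, by -0.38 in the change of effect and by -0.37 in treated cells over time. The share of higher genes among all calls moved from 49.7% to 29.3% at 7 h, from 49.8% to 24.9% in the change of effect and from 47.5% to 20.8% in treated cells over time. At 1 h it moved from 46.1% to 68.4%, and to 57.8% under quantile normalization. Among the 10 genes the directions of GDF15, INHBA, HBEGF and FGF2 (higher) and of PDGFA, TGFB2 and EGFR (lower) at 7 h were held under both scalings. That of TGFB1 was 0.03 without a call under the total. In treated cells over time TGFB1 went from 0.25 to -0.12 and EGFR from 0.31 to -0.06, so whether these rose with time rested on the scaling. FGF2 went from 0.95 to 0.58 and PDGFA from -0.72 to -1.09.

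**Figure D4:**
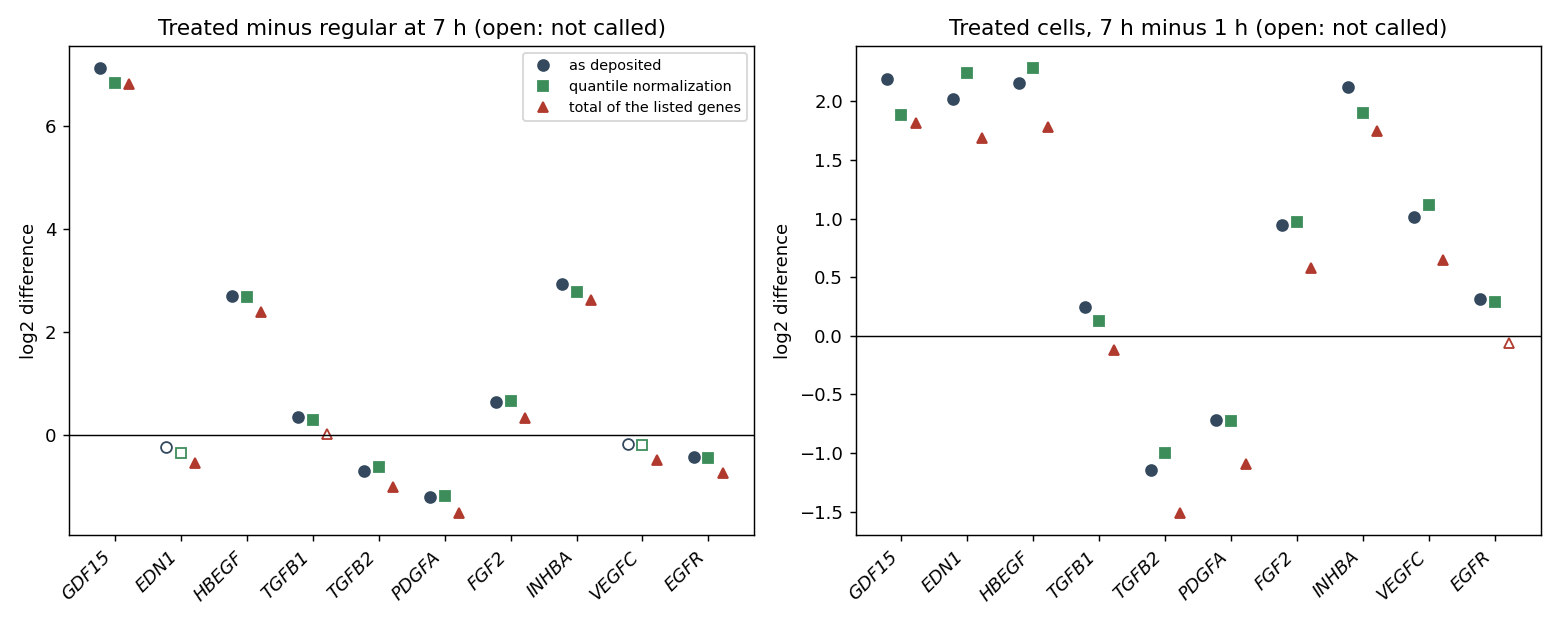
log2 differences of the 10 genes as deposited, under quantile normalization and under total-count scaling, for treated minus regular cells at 7 h (left) and treated cells at 7 h minus 1 h (right); open symbols were not called. GDF15 lies at 6.80 to 7.12 in the left panel, while TGFB1 and EGFR cross 0 in the right panel.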

How the data were processed

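RNA of LN229-TAZ(4SA) cells was sequenced in 8 libraries, 2 per group. Per the labels' protocols, the kits were SMART-Seq mRNA HT (Takara Bio) with Nextera XT, which mark no strand. The submitters' processing notes name HISAT2, edgeR and the build GRCh38. Versions and a counting tool were not given in the sources used here. Values deposited by the authors are log2 CPM with a prior of 0.0522 CPM (2 reads in a mean library), which was removed for the printed levels. The log2 differences keep it, and it understates changes of genes with few reads. 100% of the values up to 200 reads then lay within 0.1 read of a whole number. Columns are headed by group alone, and libraries are called A and B without order.

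A filter of 1 CPM in 2 or more libraries kept 13028 genes and removed 8. The log2 values were fitted with limma 3.58.1 (R 4.3.3), using a mean for each of the 4 groups and an intensity trend. The fit left 4 residual degrees of freedom, and 14.5 prior degrees of freedom came from the spread shared over all genes. Each p-value thus rests mostly on that shared spread and less on the spread of the gene itself. 5 contrasts were tested with Benjamini-Hochberg adjustment over all genes (0.05). Libraries of a pair differed by more than counting error (chi-square per degree of freedom 2.79 to 3.62). Gene positions and exon lengths are from GENCODE 29 and upstream windows from RefSeq. The members, lists and tests were chosen with earlier results of these data known. All 10 genes are named in each contrast; of related genes, those with at least 5 CPM in the higher group and among the 3 largest called differences per list and contrast; and the 3 nearest genes of each member. 1 of these nearest genes is not reported here.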

Additional observations from a re-analysis of the deposited data

Results flagged for a closer look

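For 7 of the 10 genes the treatment effect at 7 h differed from that at 1 h by a direct test of the difference in limma, and each is given as the 7 h effect minus the 1 h effect on the log2 scale. HBEGF differed by 5.89 (adjusted p = 7.91e-21; -3.19 at 1 h and 2.70 at 7 h) and EDN1 by 5.58 (adjusted p = 1.67e-12; -5.80 and -0.23). GDF15 differed by 5.06 (adjusted p = 4.46e-20; 2.06 and 7.12) and INHBA by 3.10 (adjusted p = 6.34e-20; -0.16 and 2.94). FGF2 differed by 0.93 (adjusted p = 2.18e-09; -0.28 and 0.65) and TGFB1 by 0.64 (adjusted p = 3.78e-09; -0.29 and 0.35). EGFR differed the other way, by -0.45 (adjusted p = 4.98e-06; 0.02 and -0.42). Over all genes 73.7% differed in either direction, so a difference between the times is the common case in these libraries. The regular libraries changed between the times too, and the effects of drug and starvation at each time cannot be told apart. Groups of 2 libraries were too small for a check of single outlying libraries.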

How the results depend on the processing

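No paired analysis was possible because the column headings carry no replicate numbers. The 50 single-gene results were refitted over 14 alternatives (no filter, quantile normalization, scaling to each library's summed reads, a pseudocount of 0.5 CPM, voom weights, only the groups compared and leaving out each library). Of these refits, 513 kept direction and call. In 9, a result not called in the main fit changed sign. Under scaling to the summed reads 2 called results changed sign, 4 results gained a call and 2 lost it. The fit on the groups compared alone gives no value for the difference between times. Under scaling to the summed reads, 5 members were called lower at 7 h instead of 3 (EDN1 and VEGFC joined) and 4 in the difference between times instead of 1, TGFB1 (-0.12) and EGFR (-0.060) turned in treated cells over time, and 18 related genes rose at 1 h instead of 11 (17 under quantile normalization). Without single libraries all counts of called members stayed as reported, with 1 lone library assumed to vary like the other groups. Values near 0 that were never called there changed sign: EGFR at 1 h (-0.01) and VEGFC at 1 h (-0.09) without regular 1 h library A, FGF2 in regular culture (-0.06 without regular 1 h library B, and also without regular 7 h library B), and the difference between times of PDGFA (-0.07 without treated 7 h library B, and also without treated 1 h library A or regular 7 h library B). EDN1 and VEGFC rest on few reads, which limits their precision. The cause of these changes was not tested.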
